A study of Mus musculus with 18 samples.

Results

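Cortex of mice that had received urban particulate matter for 8, 12, 16 or 20 weeks was compared with cortex of vehicle-treated mice. The comparison rests on 5 of the 18 libraries of the study, 4 exposed and 1 control, chosen by their labels and by the shared form of their column headers. The header of the 8-week library carries the number 1, as does that of the control, whereas those of 12, 16 and 20 weeks carry their week. The groups were taken from the labels. The mice were male C57BL/6, 7 weeks old at the start, and received either phosphate-buffered saline or UPM (SRM 1648a, a certified reference dust collected from city air) through the nose. UPM was given 2 times per week for the 8, 12, 16 or 20 weeks, and saline was the vehicle of the control. The time at which the control was taken is not given in the sources used here, so exposure, its length, the age of the mice and the total dose cannot be told apart. Each library was made from 1 pool of RNA taken from several mice. No exposure time and no control was repeated. The 4 exposure times therefore served as the replicates of exposure. A p-value here sets the distance of the 1 control from these 4 pools against the spread among the 4. That spread mixes exposure time with differences between pools, and the spread of the control was not measured. Hippocampus, with 1 control and 4 exposed libraries of the same times, served for comparison.

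Inhaled or instilled particles can reach the brain through the olfactory route or act on it through the blood, and microglia, astrocytes and the vessel wall are the cells most often studied in that setting. The cerebral cortex is built of layered excitatory neurons, inhibitory interneurons and glia. It borders on the striatum and on the ventricles, whose choroid plexus secretes cerebrospinal fluid and expresses transthyretin at a very high level. Immediate early genes such as Fos and Egr1 are switched on within minutes by neuronal activity, and their RNA is short-lived, so their level reflects the state of the tissue close to its removal.

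The libraries were read at 3' ends of polyadenylated RNA. Their depth ran from 7.31 to 8.65 M counts, and 1 count equals 0.116 to 0.137 CPM (counts scaled to a common library size). Rn45s, the ribosomal RNA precursor, took 9.07% of the counts in the control and 12.88%, 10.94%, 9.54% and 7.75% at 8, 12, 16 and 20 weeks. The tissue label held: all 25 cortical neuron genes passed the filter on low counts, their summed level was 5610 CPM in the control and 5270 to 5420 CPM in the exposed libraries, and it was 2070 to 3660 CPM in hippocampus. Genes of striatal projection neurons summed to 1370 CPM in the control and to 2410, 2090, 1890 and 771 CPM at 8, 12, 16 and 20 weeks. The control lay between the exposed libraries for all 14 of these genes that were tested, and the 20-week library was the lowest. Myelin genes, which include those of white matter below the cortex, summed to 5650 CPM in the control and to 7250, 5280, 5140 and 3750 CPM in the same order. The part of these differences in the results below was not tested. Values without the 20-week library do not test it either, since every exposed library left then had a higher striatal sum than the control. In pooled tissue, fewer cells of a type and less RNA per cell cannot be told apart.

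Across the 14266 genes tested, 7 differed between the exposed libraries and the control with the quasi-likelihood test of edgeR at a Benjamini-Hochberg adjusted p under 0.05. Of these, 4 were higher (0.028% of the genes tested) and 3 were lower (0.021%). The genes lower after exposure were Plekhh2, Ttr and Enpp2. Those higher were Sdhd, Sep15, Lrrc17 and Akap5. An unadjusted p under 0.05 was reached by 434 genes (3.04%) on the higher side and 345 (2.42%) on the lower side, 779 in all. With no difference, a share of about 0.05 of the genes would reach it. The 4 exposed libraries lay above the control for 2888 genes (20.2%) and below it for 3024 (21.2%). With scaling by total counts alone, those counts were 2208 and 3679. A control no different from the other libraries would be the lowest of the 5 for 1 gene in 5, and the highest for 1 in 5. Both shares are near that, and the counts of list members below are to be read against them. Among 10365 genes with at least 50 counts in the control or in every exposed library, all 4 exposed libraries were at least 1.5-fold above the control for 25 genes (0.241%) and at least 1.5-fold below it for 38 (0.367%). At 2-fold, 2 genes lay above (0.0193%) and 9 below (0.0868%). This filter lets in a gene on the control's counts alone, so genes low after exposure could enter through the library where they were high. With a mean of at least 50 counts over the libraries instead, 23 genes lay above and 17 below at 1.5-fold, and 2 above and 2 below at 2-fold. At the 1.5-fold border, Atn1 lay just inside with a log2 ratio of 0.585 in its nearest library and Lzts3 just outside with 0.582. On the lower side Anks6 lay inside with -0.589 and Nyap2 outside with -0.57.

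Plekhh2, which encodes a pleckstrin homology and FERM domain protein described in kidney podocytes, had the smallest p. The gene lies on chromosome 17, 84511895 to 84622138 of GRCm38, and overlaps AC132353.1 and AC132353.2 on the other strand. It stood at 44.7 CPM in the control and at 9.54, 8.91, 6.79 and 7.57 CPM at 8, 12, 16 and 20 weeks (mean 8.21 ± 1.25, SD, n = 4). The exposed libraries lay close together, just below the level of the hippocampal libraries (10.7 CPM in the control and 10.4, 11.9, 11.3 and 9.74 CPM at 8 to 20 weeks). The cortical control stood apart from all 9 of these libraries. The log2 fold change of Plekhh2 was -2.45 ± 0.20 (SE; adjusted p = 5.08e-05 with edgeR). Its call held under every alternative run, with adjusted p from 8.65e-09 to 0.000504 when 1 exposed library was left out. The other cortical libraries of the study, whose headers have another form, ranged as widely as this contrast: in CPM of total counts, Plekhh2 had 16.4, 74.5 and 9.36 at 3, 5 and 7 days and 60.8 at 3 weeks of UPM.

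**Figure D1:**
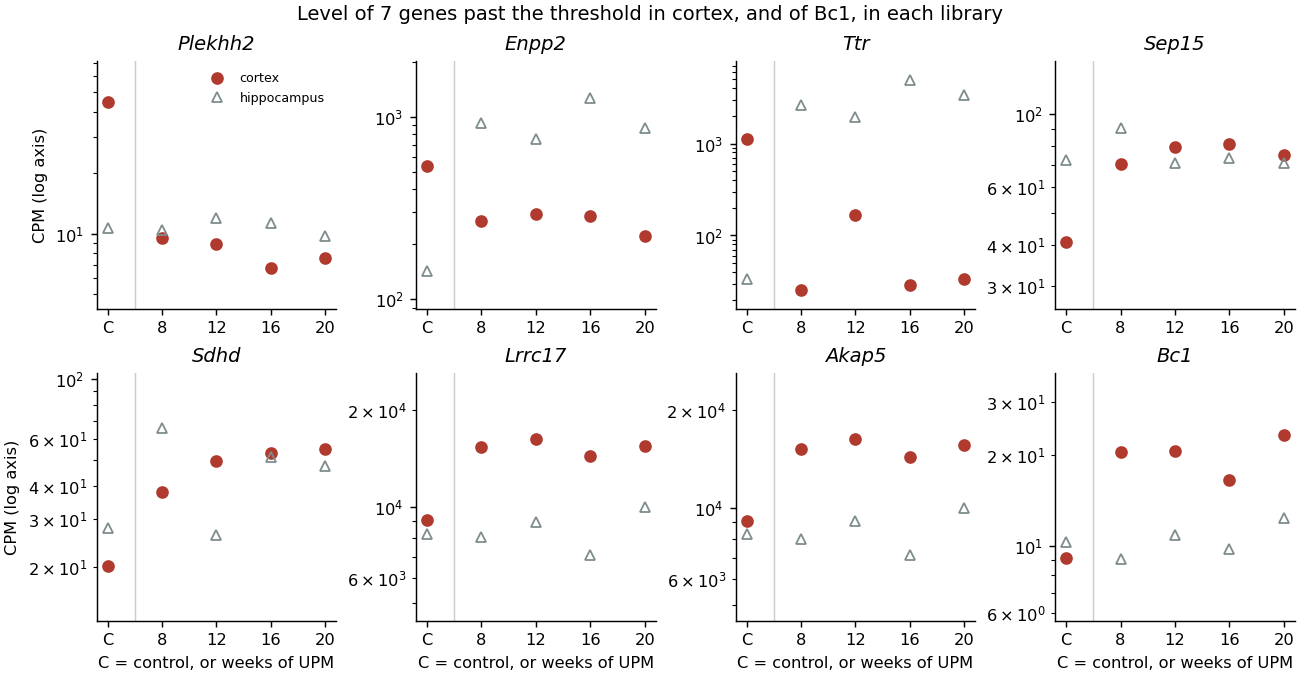
CPM (log axis) of the 7 genes past the threshold in cortex and of Bc1, in the control (C) and at 8, 12, 16 and 20 weeks of UPM, with cortex as filled circles and hippocampus as open triangles; each symbol is 1 library of pooled RNA. In cortex the control lies apart from all 4 exposed libraries in each panel, and for Plekhh2 it also lies above the 5 hippocampal libraries.

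Genes of the choroid plexus stood lower in the exposed cortex libraries. Of 18 genes on the list, 17 were tested; all 4 exposed libraries were below the control for 16 of them, 2 passed the threshold (Ttr and Enpp2), and none lay above. The exception was Igfbp2, whose libraries fell on both sides. Over all genes tested, 21.2% lay below the control in all 4 exposed libraries and 20.2% above. The median log2 fold change of the list was -2.34, against 0.005 over all genes tested. A gene could pass the filter on low counts through the control alone. Members low after exposure could therefore enter through the library where they were high. With a mean of at least 50 counts instead, 4 members were tested and 3 of them lay below in all 4 exposed libraries, with a median of -0.84. The summed level of the list was 1810 CPM in the control and 337, 536, 372 and 315 CPM at 8, 12, 16 and 20 weeks. Ttr, the transthyretin gene, which carries thyroid hormone and retinol in the cerebrospinal fluid (chromosome 18, 20665280 to 20674321), made up most of the sum in the control, with 1130 CPM, and stood at 25.5, 166, 29.1 and 34.0 CPM in the exposed libraries, where Enpp2 was the larger part. The 12-week library was the highest of these and was still far below the control. The change of Ttr was -4.14 ± 0.56 (adjusted p = 0.00815 with edgeR). DESeq2 gave Ttr an adjusted p of 0.563, and edgeR gave 0.0626 without the 16-week library and 0.144 in the fit over both tissues. In the cortical libraries of 3, 5 and 7 days and 3 weeks, Ttr had 3800, 7.81, 468 and 1710 CPM of total counts, so that the control lay within the range of other exposed cortices.

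Enpp2 encodes autotaxin, which makes lysophosphatidic acid and is expressed in choroid plexus and in oligodendrocytes. It lies on chromosome 15, 54838901 to 54952892, and overlaps Gm26684 on the other strand. Enpp2 stood at 535 CPM in the control and at 270, 292, 287 and 223 CPM after exposure (mean 268 ± 31.5, SD, n = 4), a log2 fold change of -1.0 ± 0.13 (adjusted p = 0.00391 with edgeR). In the fit over both tissues its adjusted p was 0.395, and in the test against a fold of 1.5 it was 0.919. It was also the only myelin gene of 22 for which all exposed libraries were below the control, and Apod the only one for which they were above. 1500015O10Rik, also named Ecrg4, a secreted peptide precursor of the choroid plexus that overlaps Gm29155 on the other strand, stood at 14.9 CPM in the control and 0.57, 3.91, 1.5 and 1.46 CPM after exposure (-2.97 ± 0.50, adjusted p = 0.0573 with edgeR). Prlr, the prolactin receptor, stood at 14.9 CPM and at 4.13, 2.81, 0.576 and 1.59 CPM (adjusted p = 0.0905 with edgeR). Sostdc1, a secreted antagonist of BMP and Wnt signalling, Kl, the klotho gene, and Clic6, a chloride channel protein, were between 7.45 and 9.94 CPM in the control and between 0.997 and 3.3 CPM in all exposed libraries. Aqp1, the water channel of the choroid epithelium, stood at 4.44 CPM in the control and at 0.122 to 0.345 CPM after exposure, where it had at most 3 counts per library. With the limma-voom method, 5 genes of the list passed.

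The hippocampus showed the opposite difference in the same genes. There all 18 choroid plexus genes were tested and stood above the control in every exposed library, where 22.2% of all genes tested in hippocampus lay above in all 4 libraries and 21.3% below. There too a gene could pass the filter on low counts through exposed libraries alone. The list had a median log2 fold change of 4.45 and a summed level of 252 CPM in the control and 3980, 2920, 6660 and 4630 CPM at 8, 12, 16 and 20 weeks. The 3 genes called in hippocampus, Ttr, Otx2 and Clic6, were all higher (0.0203% of 14787 genes tested). In a fit of both tissues, 16 of 15037 genes had a change in cortex that differed from that in hippocampus, and all 16 were more negative in cortex (0.106%). The list of choroid plexus genes held 12 of them. The others were F5, the gene of coagulation factor V, Lbp, which binds bacterial lipopolysaccharide, Rbm47, an RNA-binding protein gene, and Plekhh2. For Enpp2 the difference between the tissues was -3.74 ± 0.33 (adjusted p = 0.000393 with edgeR), and for Otx2, a homeobox factor of the choroid plexus, it was -7.07 ± 0.62 (adjusted p = 0.000393). For Plekhh2 it was -2.46 ± 0.31 (adjusted p = 0.00551), and in hippocampus alone Plekhh2 had a log2 fold change of 0.02 ± 0.24. With Ttr and the other genes of neighbouring regions and blood left out of the counts, 5 genes remained called in cortex, 4 higher and Plekhh2 lower.

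**Figure D2:**
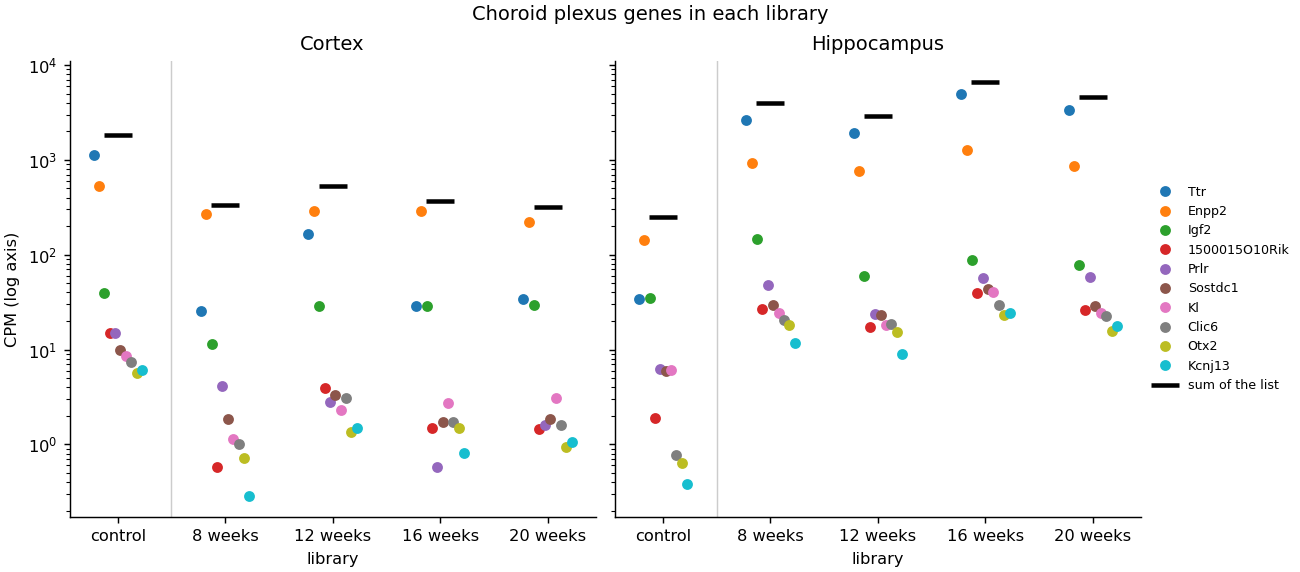
CPM (log axis) of 10 choroid plexus genes (coloured points) and the sum of the whole list (black bars) in each library of cortex (left) and hippocampus (right). Within cortex the sum is highest in the control, at 1810 CPM, and within hippocampus it is lowest in the control, at 252 CPM.

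**Figure D3:**
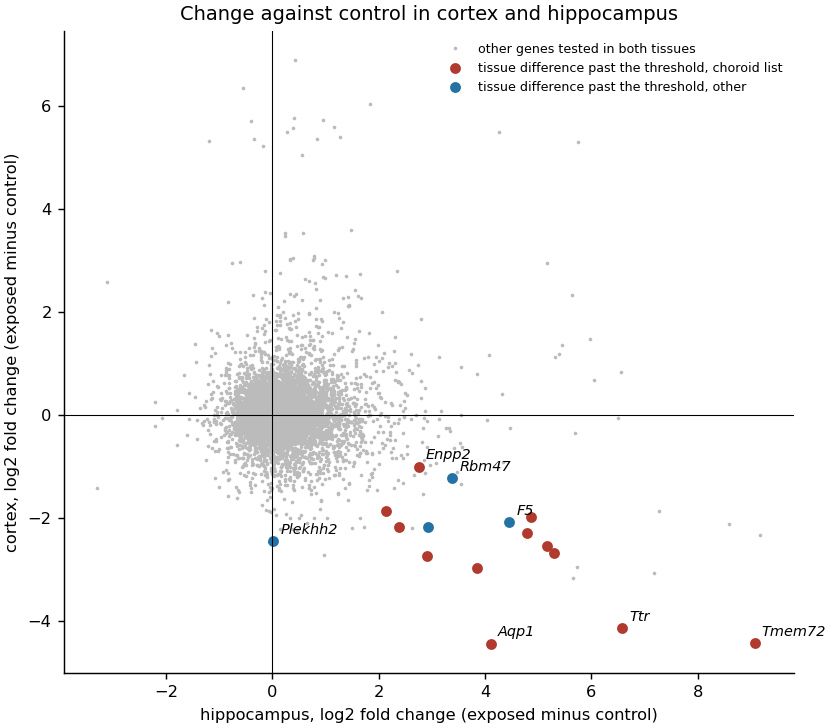
Log2 fold change of exposed libraries minus control in hippocampus (x axis) and cortex (y axis), with each point 1 gene; coloured points are the 16 genes whose change differed between the tissues, red for the choroid plexus list and blue for the others. All 16 lie at or right of 0 in hippocampus and below 0 in cortex, with Plekhh2 at 0.02 and -2.45.

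Lrrc17 and Akap5 were called together and could not be separated. Lrrc17, a leucine-rich repeat protein gene on chromosome 5 (21543559 to 21575904), stood at 9090 CPM in the control and 15300, 16300, 14400 and 15500 CPM at 8, 12, 16 and 20 weeks. Akap5, the gene of a postsynaptic anchor of protein kinase A on chromosome 12 (76324891 to 76334153), stood at 9120 CPM and at 15200, 16300, 14300 and 15600 CPM. The raw counts of the 2 genes in the control were 69556 and 69756, and at 16 weeks they were 125421 and 124594. Log2 fold changes were 0.76 ± 0.08 and 0.75 ± 0.08 (both adjusted p = 0.00117 with edgeR). The transcripts of both contain a copy of the start of Bc1, a short neuronal RNA made by RNA polymerase III that acts on translation in dendrites. A search of 141767 GENCODE M21 transcripts for runs identical to Bc1 (168 bases, chromosome 7, 144914470 to 144914637, plus strand) found 2 genes with a run of at least the read length of 75 bases. Lrrc17 holds 82 identical bases in the same orientation in its 3' untranslated region (chromosome 5, 21575452 to 21575533). Akap5 holds 77 in the opposite orientation in its 3' untranslated region (chromosome 12, 76333416 to 76333492). The next longest run, in Elp6 and Gm26549, was 67 bases. The sequences below are from Bc1 itself, the first 30 bases of the run shared by all 3 genes in capitals, and in lower case the tail, which neither run reaches.

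Bc1 shared run, bases 5 to 34 (chr7:144914474-144914503, plus strand): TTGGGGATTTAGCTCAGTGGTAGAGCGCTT

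Bc1 tail, bases 87 to 168 (chr7:144914556-144914637, plus strand): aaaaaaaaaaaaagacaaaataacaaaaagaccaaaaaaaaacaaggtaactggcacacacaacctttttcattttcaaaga

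A read of 75 bases that lies within the run of 82 fits both Bc1 and Lrrc17, and one within the run of 77 fits both Bc1 and Akap5, so the levels given for Lrrc17 and Akap5 may hold reads of Bc1, and neither Lrrc17 nor Akap5 is reported here as a changed gene of its own. Bc1 itself stood at 9.15 CPM in the control and at 20.5, 20.6, 16.6 and 23.4 CPM after exposure, with all exposed libraries above the control (log2 fold change 1.14 ± 0.25, adjusted p = 0.199 with edgeR). In hippocampus Lrrc17 and Akap5 both had a change of 0.05 ± 0.18, and Bc1 one of 0.03 ± 0.26. When Akap5, Lrrc17 and Bc1 were left out of the counts, an alternative added after their shared sequence was seen, 3 genes were called, all of them lower, and no gene was called higher with edgeR.

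Sdhd and Sep15 were the other genes higher after exposure. Sdhd, which encodes a membrane anchor of succinate dehydrogenase (chromosome 9, 50596357 to 50603812), stood at 20.1 CPM in the control and 37.9, 49.7, 53.2 and 54.9 CPM at 8, 12, 16 and 20 weeks. Its log2 fold change was 1.28 ± 0.21 (adjusted p = 0.0469 with edgeR). Sep15, the selenoprotein gene now named Selenof, whose product acts in protein folding in the endoplasmic reticulum (chromosome 3, 144570304 to 144597680, overlapping Gm24406 on the other strand), stood at 40.8 CPM and at 70.5, 79.6, 81.4 and 75.0 CPM. Its log2 fold change was 0.91 ± 0.14 (adjusted p = 0.0375 with edgeR). In hippocampus the control levels were 27.8 CPM for Sdhd and 72.6 CPM for Sep15, and the exposed libraries lay at 26.3 to 65.9 CPM and 70.9 to 90.8 CPM. Both calls were near the threshold and were lost in several alternatives. With edgeR, without Akap5, Lrrc17 and Bc1, the adjusted p of Sdhd was 0.0676 and that of Sep15 0.0592. With total counts alone both were 0.0791, without the 16-week library both were 0.153, and without the 12-week library both were 0.108. In the fit over both tissues they were 0.937 for Sdhd and 0.179 for Sep15. Against a fold of 1.5 neither passed, with 0.722 for Sdhd. With a mean of at least 50 counts Sdhd had 0.0558 and Sep15 0.0411, and limma-voom gave 0.102 and 0.0401. Both passed in the other alternatives, among them DESeq2 (0.000111 and 0.000223).

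Several other genes lay above or below the control in every exposed library without passing the threshold. Shank3, a scaffold protein of excitatory synapses, stood at 15.0 CPM in the control and at 28.9, 32.5, 30.8 and 34.3 CPM after exposure (1.07 ± 0.19, adjusted p = 0.0727 with edgeR). It overlaps Gm15609 on the other strand. Tspyl4, a nucleosome assembly family gene that overlaps Gm47512 and Nt5dc1, stood at 84.1 CPM and at 133, 195, 162 and 194 CPM (1.03 ± 0.18, adjusted p = 0.0805). Pura, which encodes a nucleic acid binding protein of neurons, stood at 403 CPM and at 581 to 735 CPM (adjusted p = 0.0905). Hcn2, a pacemaker channel gene, stood at 104 CPM and at 148 to 184 CPM (adjusted p = 0.191). The 2 genes at least 2-fold above the control in all exposed libraries were Prss57, a serine protease gene that overlaps Fstl3, from 3.4 to between 8.18 and 9.3 CPM, and Tmem128, a membrane protein gene, from 4.97 to between 11 and 12.3 CPM. Of the 25 genes at least 1.5-fold above the control, 18 also had a positive log2 fold change in hippocampus, against 46.7% of the 10365 genes from which they came. Of the 38 at least 1.5-fold below, 11 had a negative one there, against 51.5% of the 10365, and 7 were choroid plexus genes. These differences from the background were not tested. The 9 genes at least 2-fold below were Ttr, Plekhh2, 1500015O10Rik, Prlr, F5, Sostdc1, Kl, Gdap10 and Clic6. Of these, Prlr, F5, Gdap10 and Clic6 overlap another gene on the same strand, so their reads may be shared. Nmb, the neuromedin B gene, which overlaps Sec11a, stood at 19.2 CPM in the control and at 2.42, 7.69, 9.55 and 7.3 CPM after exposure. Acta2, the smooth muscle actin gene of vessel walls, stood at 30.9 CPM and at 11, 15.0, 18.1 and 15.0 CPM (-1.06 ± 0.22, adjusted p = 0.193 with edgeR).

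Immediate early genes tended to lie below the control. Of 27 tested, all 4 exposed libraries were below for 16 and above for 4 (Egr3, Klf10, Nptx2 and Homer1), and the median log2 fold change was -0.45. Over all genes tested, 21.2% lay below in all 4 and 20.2% above. No member passed the threshold with edgeR. An unadjusted p under 0.05 was reached by 15 members on the lower side and 2 on the higher side, against 2.42% and 3.04% of all genes tested. DESeq2 called 1, Egr1, and limma-voom 0. Over all genes, DESeq2 called 9 higher (0.0631%) and 4 lower (0.028%), and limma-voom 3 higher (0.021%) and 7 lower (0.0491%). Egr1, a zinc-finger transcription factor of active neurons, stood at 511 CPM in the control and at 377, 376, 364 and 383 CPM at 8, 12, 16 and 20 weeks. These 4 values lie close together, and the log2 fold change was -0.45 ± 0.10 (adjusted p = 0.199 with edgeR). Fos, part of the AP-1 factor, stood at 24.1 CPM and at 12.0, 14.4, 10.2 and 13 CPM (-0.96 ± 0.21, adjusted p = 0.234). Egr4, of the same family as Egr1, stood at 73.2 CPM and at 37.0, 50.8, 40.6 and 42.8 CPM (-0.77 ± 0.16, adjusted p = 0.181). Nr4a1, an orphan nuclear receptor, stood at 76.0 CPM and at 40.2, 36.1, 32.5 and 53.3 CPM (-0.91 ± 0.19, adjusted p = 0.199). The 20-week library was the nearest to the control for Nr4a1. It was also the nearest for Arc, a synaptic capsid-like protein, which stood at 124 CPM and at 76.9, 91.1, 67.4 and 107 CPM, and for Btg2, an antiproliferative factor, which stood at 26.3 CPM and at 12.7, 10.3, 11 and 20.3 CPM. Dusp1, a phosphatase of MAP kinases, stood at 43.9 CPM and at 26.2, 24.3, 23.5 and 30.1 CPM, and overlaps AC122252.1 and AC122252.4. Npas4, the most activity-specific of these factors, lay on both sides of the control, from 2.71 to 8.5 CPM against 7.32 CPM. Median log2 ratios of the list to the control were -0.55, -0.4, -0.57 and -0.22 at 8, 12, 16 and 20 weeks, against values within 0.002 of 0 over all genes. In hippocampus the median log2 fold change of the list was -0.00, with 6 genes below the control in all exposed libraries and 4 above. None of the 16 genes whose change differed between the tissues was an immediate early gene.

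**Figure D4:**
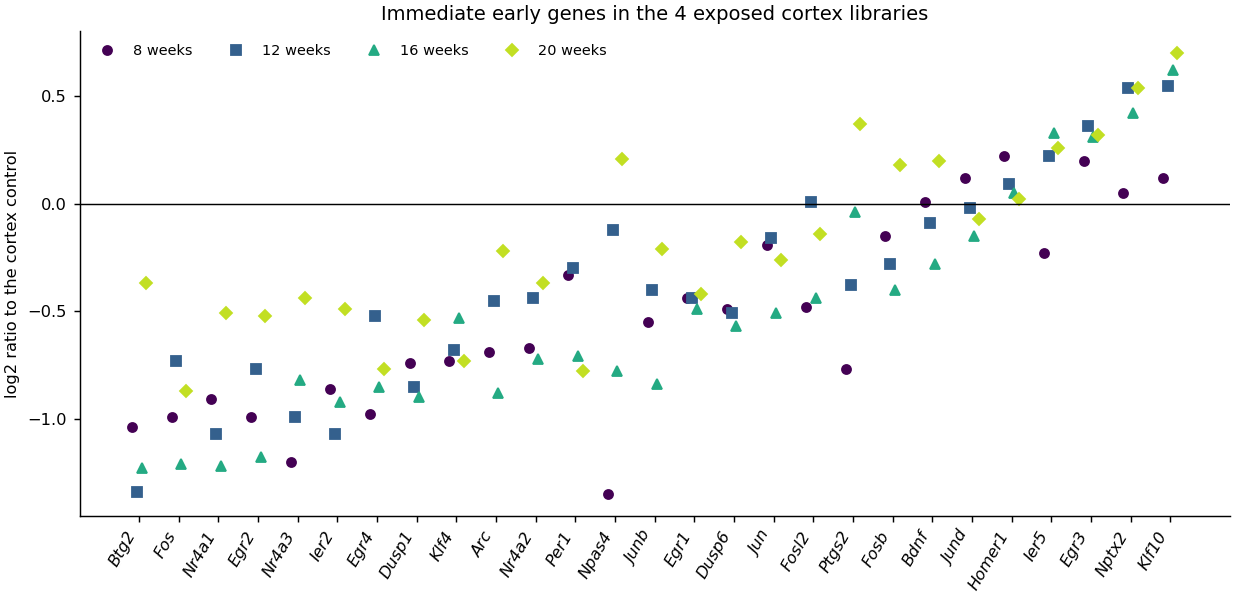
Log2 ratio of each exposed cortex library to the control (y axis, prior count 2) for the 27 immediate early genes tested, ordered by their mean, with 1 symbol per exposure time. Egr1 shows the closest agreement near -0.45, and the 20-week library (diamonds) is the nearest to 0 for Arc, Btg2 and Nr4a1.

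Many immediate early genes are driven through the cAMP response element, which the factor CREB binds. RefSeq promoters (GRCm38.p6; 250 bases before to 50 after the start) were searched for its half-site, TGACG, on both strands, where the other strand reads CGTCA. Of the 27 genes, 21 had a promoter in the table. The half-site was found in 11 of 13 genes below the control and in 5 of the 8 others, against 23% of all 27025 genes and 20.8% of all 32851 promoters. This is a property of the family, and it describes letters in a window, not a bound site. Windows are shown for 4 genes below the control, from 10 bases before the first match to 10 after the last, with matches in capitals and lower case elsewhere. In Dusp1 a pair of overlapping half-sites on both strands forms the full palindrome.

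Fos (chr12:85473751-85473838, plus strand, 139 to 52 bases before the start): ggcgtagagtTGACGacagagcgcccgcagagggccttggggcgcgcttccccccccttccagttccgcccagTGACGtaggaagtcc

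Nr4a1 (chr15:101266603-101266820, plus strand): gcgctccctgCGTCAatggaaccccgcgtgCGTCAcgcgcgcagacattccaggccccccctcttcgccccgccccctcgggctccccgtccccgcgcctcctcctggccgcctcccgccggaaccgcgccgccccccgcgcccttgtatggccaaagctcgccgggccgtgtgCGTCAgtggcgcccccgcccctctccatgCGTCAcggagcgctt

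Dusp1 (chr17:26508598-26508673, minus strand): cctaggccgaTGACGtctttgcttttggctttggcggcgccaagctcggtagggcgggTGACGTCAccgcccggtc

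Egr4 (chr6:85513684-85513776, minus strand): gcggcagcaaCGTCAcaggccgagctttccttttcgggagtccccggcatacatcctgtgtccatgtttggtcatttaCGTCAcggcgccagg

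The 20-week library decided how many genes were called. Without it, 80 genes passed with edgeR, 46 higher (0.324% of 14196) and 34 lower (0.24%), and these included all 7 of the comparison over 4 libraries. On the lower side were 11 immediate early genes: Arc, Btg2, Dusp1, Dusp6, Egr1, Egr4, Fos, Junb, Nr4a1, Nr4a2 and Nr4a3. Nr4a1 then had a log2 fold change of -1.07 ± 0.14 (adjusted p = 5.76e-05 with edgeR) and Egr1 one of -0.46 ± 0.09 (adjusted p = 0.00731). Choroid plexus genes gave 9 calls, all lower. Acta2 was also called lower, and Shank3, Hcn2, Rps10 and Atp5e higher. The largest change among the calls was that of Gh, the growth hormone gene, which was lower (-8.0 ± 1.39). Alb, the albumin gene, was called higher (3.11 ± 0.61). Its list of acute-phase and nasal genes summed to 12.2 CPM in the control and to 85.2, 19.2, 55.0 and 3.05 CPM at 8, 12, 16 and 20 weeks. The source of these RNAs was not tested. On the higher side were 9 of the 14 tested members of the striatal list, and all 14 lay above the control in every exposed library left. Among the 9 were Ppp1r1b, the DARPP-32 phosphoprotein of projection neurons (1.10 ± 0.11, adjusted p = 1.37e-07 with edgeR), Adora2a, an adenosine receptor (1.19 ± 0.22, adjusted p = 0.00401), and Drd1, a dopamine receptor (0.72 ± 0.14, adjusted p = 0.00725). Called genes outside the lists were not sorted by region. Over all 4 libraries the striatal genes gave no call with edgeR, DESeq2 or limma-voom and 0 of 14 had an unadjusted p under 0.05. Ppp1r1b stood at 159 CPM in the control and at 364, 354, 310 and 72.5 CPM at 8, 12, 16 and 20 weeks, and Adora2a at 14.8 CPM and at 38.7, 36.9, 26.2 and 4.52 CPM. The 20-week library, which had the lowest summed striatal level, was the nearest to the control for 12 of 27 immediate early genes, against 5, 8 and 2 for the libraries of 8, 12 and 16 weeks. The part of striatal RNA in the difference of the immediate early genes was not tested.

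Ribosomal protein genes lay slightly above the control in most cases, and genes of respiration did so in part. Over all genes tested, 20.2% lay above in all 4 exposed libraries and 21.2% below. An unadjusted p under 0.05 on the higher side was reached by 3.04% of them with edgeR. Of 78 ribosomal protein genes, 53 were above in all exposed libraries and 8 below, with a median log2 fold change of 0.17 and 20 at an unadjusted p under 0.05, all higher; edgeR, DESeq2 and limma-voom called 0 of them. Rps10, of the small subunit, was the strongest at 0.64 ± 0.14 (adjusted p = 0.217 with edgeR), and it overlaps RPS10-NUDT3. The summed level was 11400 CPM in the control and 12200, 13000, 12600 and 13400 CPM after exposure. With total counts alone, 36 of the 78 were above and 8 below, with a median of 0.13. In hippocampus the order was the other way, with 34 below, 6 above and a median of -0.07. Of 74 genes of oxidative phosphorylation, 31 were above, 5 below and 38 on both sides, with a median of 0.06; Sdhd was the member called. Atp5e, a subunit of the ATP synthase, stood at 99.4 CPM in the control and at 132 to 154 CPM after exposure, and Ndufb4, of complex I, at 58.6 CPM and at 78.6 to 97.4 CPM (log2 fold changes 0.52 ± 0.13 and 0.57 ± 0.15; neither passed). With total counts alone, 20 were above and 9 below, with a median of 0.02. In hippocampus 4 of the 74 were above and 39 below.

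Several gene groups had more members below the control than above. Over all genes tested, 21.2% lay below in all 4 exposed libraries and 20.2% above. Of 25 cortical neuron genes, 12 were below and 3 above, with a median of -0.08; Etv1, a factor of deep-layer neurons, stood at 64.7 CPM in the control and at 40.3 to 46.7 CPM after exposure (-0.55 ± 0.14, adjusted p = 0.349 with edgeR), and Fezf2, which specifies neurons projecting below the cortex, at 84.8 CPM and at 48.0 to 74.8 CPM. Of 16 neurogenesis genes tested, 10 were below and 0 above, with a median of -0.22; Tubb2b, a tubulin of growing neurons, stood at 209 CPM and at 145 to 175 CPM, and Dcx, the doublecortin gene, at 48.6 CPM and at 28.7 to 44.9 CPM. Of 25 collagen and laminin genes, 10 were below and 4 above, with a median of -0.33, and Col5a1 was at 27.7 CPM in the control and at 12.8 to 17.1 CPM after exposure. The long nuclear RNAs Malat1, Meg3, Miat and Snhg11 were below in all exposed libraries, with the 12-week library the lowest; Malat1 stood at 10400 CPM and at 9560, 5640, 8160 and 7570 CPM. Their list summed to 28400 CPM in the control and to 24600, 14800, 22000 and 22200 CPM. No member of these lists was called over the 4 exposed libraries with edgeR, DESeq2 or limma-voom. Without the 20-week library edgeR called Col5a1 (-0.99 ± 0.20, adjusted p = 0.00846) and Snhg11 (-0.58 ± 0.12, adjusted p = 0.0142), both lower. At an unadjusted p under 0.05, over all 4, there were 4 cortical neuron genes lower, 3 neurogenesis genes lower, 2 collagen and laminin genes lower and 1 higher, and 3 long nuclear RNAs lower.

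Endothelial genes lay on both sides of the control, and none passed over the 4 exposed libraries. Of 22 endothelial and barrier genes, 8 were below the control in all exposed libraries and 4 above, with a median of -0.02. Among all genes tested the shares were 21.2% below and 20.2% above. Kdr, the receptor of vascular endothelial growth factor, stood at 22.5 CPM in the control and at 14.8, 7.45, 13.2 and 13.3 CPM after exposure (-0.89 ± 0.27, adjusted p = 0.68 with edgeR). A pair of genes outside the list were taken up because they were far below the control: Klf2, a factor that responds to blood flow in endothelium, stood at 28.8 CPM and at 14.5, 18.3, 16.7 and 11.6 CPM, and Apold1, an endothelial early response gene, at 15.3 CPM and at 4.7, 4.15, 6.22 and 7.7 CPM. Without the 20-week library edgeR called Apold1 lower (-1.6 ± 0.3). Mfsd2a, a lipid transporter of the barrier, stood at 16.9 CPM and at 8.3 to 13.1 CPM. Cldn5, a tight junction gene, lay on both sides, at 15.7 CPM and at 13.8 to 21.1 CPM. EdgeR, DESeq2 and limma-voom called 0 genes of the endothelial list over the 4 exposed libraries, and 2 had an unadjusted p under 0.05 with edgeR, both lower.

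Of 22 receptor genes of GABA and glutamate, 10 lay above the control and 4 below, with a median of 0.09. The shares over all genes tested were 20.2% above and 21.2% below. With total counts alone, 7 of the 22 lay above and 7 below. Gabrb2 stood at 296 CPM and at 338 to 343 CPM, and Gabra4 at 147 CPM and at 167 to 199 CPM. Gabra5 lay on the other side, at 48.1 CPM and at 35.6 to 42.9 CPM. In hippocampus 1 of the 22 receptor genes lay above the control and 9 below. Gad1, which makes GABA in interneurons, stood at 154 CPM in the control and at 177 to 204 CPM after exposure (0.29 ± 0.12, adjusted p = 0.903 with edgeR). Thalamic and habenular genes had 7 of 14 above and 0 below, and summed to 472 CPM in the control and to 662, 538, 459 and 477 CPM at 8, 12, 16 and 20 weeks. Neither of these lists gave a call with edgeR, where 1 receptor gene and 2 thalamic genes had an unadjusted p under 0.05, all higher.

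Tested genes of the responses most often studied after particle exposure gave no call. Members removed by the filter on low counts were not tested, so these lists cover only part of each response. Of 33 listed cytokine and NF-kappaB genes 19 were tested, and Il6, Tnf and Ccl2 were not. Of 26 reactive astrocyte genes 17 were tested, and Lcn2 was not. Cyp1a1 and Cyp1b1 of the aryl hydrocarbon receptor list and Itgax and Clec7a of the activated microglia list were not tested either. For scale, 20.2% of all genes tested lay above the control in all 4 exposed libraries and 21.2% below. Activated microglia genes had 6 of 19 members above and 2 below (median 0.12), cytokines and NF-kappaB targets 4 and 4 of 19 (median 0.15), antigen presentation 6 and 0 of 12 (median 0.21), and interferon-induced genes 2 and 7 of 21 (median -0.14). Antioxidant genes of the NRF2 pathway had 9 of 28 above and 5 below (median 0.11), genes of the aryl hydrocarbon receptor 4 and 0 of 14 (median 0.07), and reactive astrocyte genes 2 and 2 of 17 (median 0.05). EdgeR, DESeq2 and limma-voom called 0 members of these 7 lists. At an unadjusted p under 0.05 the activated microglia and cytokine lists had 1 member on each side, antigen presentation and NRF2 had 1 higher, the aryl hydrocarbon receptor list 2 higher, and the interferon and reactive astrocyte lists 0. Gfap, the astrocyte filament gene, stood at 48.5 CPM in the control and at 33.3, 41.8, 33.7 and 46.9 CPM after exposure (-0.32 ± 0.18, adjusted p = 0.936 with edgeR). Aif1, the microglial gene of IBA1, stood at 9.8 CPM and at 9.4 to 12.1 CPM. Gpx4, whose product reduces lipid peroxides, stood at 51.0 CPM and at 68.4 to 75.5 CPM (0.48 ± 0.13, adjusted p = 0.515 with edgeR). Il1b had 1 count in the control and 12, 4, 1 and 4 counts in the exposed libraries, and Hmox1 had 7 counts and 5, 20, 9 and 12 counts. At this depth a difference in these 2 genes was not detectable. App and Mapt, the genes of the amyloid precursor and of tau, stood at 951 and 733 CPM in the control and at 916 to 1060 and 673 to 768 CPM after exposure, around the control. Snap25, a synaptic vesicle fusion protein, stood at 1260 CPM and at 1370 to 1620 CPM (0.25 ± 0.11, adjusted p = 0.903).

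**Figure D5:**
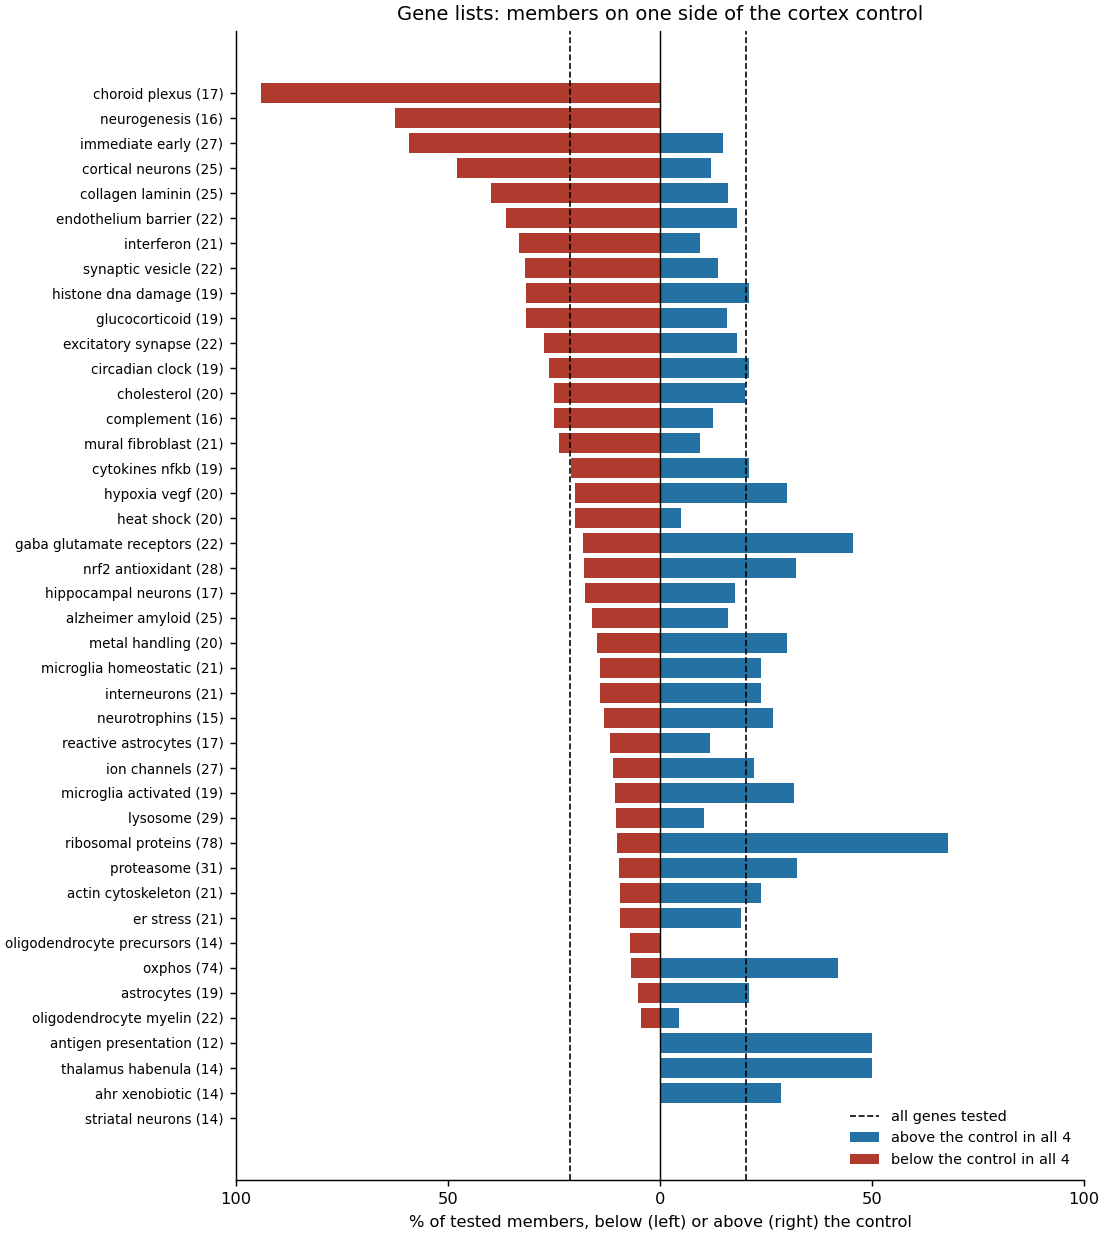
Share of each list's tested members (number in brackets) with all 4 exposed cortex libraries above (right, blue) or below (left, red) the control, for lists with at least 12 tested members; dashed lines mark the share over all genes tested, 20.2% above and 21.2% below. Choroid plexus, neurogenesis and immediate early genes reach farthest to the left and ribosomal protein genes farthest to the right.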

How the data were processed

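QuantSeq 3' mRNA libraries (single-end reads, oligo-dT primed) were made from pooled RNA, per the labels' protocols. The authors deposited raw read counts per gene symbol, made with Bowtie2, bedtools and edgeR on mm10 per the submitters' processing notes. Annotation, strand setting and treatment of multi-mapping reads are not given in the sources used here. Repeated symbols were summed, leaving 23238 symbols, and 27 symbols turned into dates in 2 files, among them that of Sep15, were restored from line order.

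Counts were scaled by TMM, filtered with filterByExpr and tested with edgeR 4.0.16 (quasi-likelihood, R 4.3.3; adjusted p over all genes; 3 residual degrees of freedom). The lone control is assumed to vary like the exposed libraries. An exact permutation test of 4 against 1 cannot pass the threshold. CPM values are TMM-scaled. Log2 ratios use a prior count of 2. DESeq2 1.42.0 and limma 3.58.1 (voom) were alternatives. Members and lists were chosen with earlier results of these data known. Named genes are the 10 strongest per direction (mean of at least 5 CPM), those farthest from the control with at least 50 counts, 3 per list and key genes; others were named after their values were seen. Positions are from GENCODE M21 (GRCm38). The fits were tested on simulated data. No library was a copy of another (chi-squared per degree of freedom at least 4.67). Same times in both tissues gave correlations of deviations from -0.05 to 0.18, so times were not treated as pairs.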

Additional observations from a re-analysis of the deposited data

Results flagged for a closer look

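Among the 4 exposed cortex libraries, 1 library stood apart from the others for Ttr and Sostdc1, both highest at 12 weeks (gap to the nearest library over the whole range 0.939 and 0.915), and for the summed level of the mural cell and fibroblast list, highest at 20 weeks (0.862; 254, 260, 259 and 294 CPM at 8, 12, 16 and 20 weeks). In hippocampus Sep15 was highest at 8 weeks (0.87). Chance alone sets apart about 1 in 20 such groups.

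The change in cortex differed from that in hippocampus for 16 genes with edgeR, all 16 negative as cortex minus hippocampus in log2 units. The choroid plexus genes were Tmem72 at -13.46, Ttr at -10.71, Aqp1 at -8.54, Kcnj13 at -7.98, Kcne2 at -7.7, Otx2 at -7.07, Clic6 at -6.85, 1500015O10Rik at -6.8, Prlr at -5.63, Sostdc1 at -4.55, Kl at -3.97 and Enpp2 at -3.74. The others were F5 at -6.53, Lbp at -5.09, Rbm47 at -4.59 and Plekhh2 at -2.46. Tmem72 had 0 counts in the hippocampal control, so its fitted value depends on the prior count and is no bound.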

How the results depend on the processing

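In cortex, where 7 genes were called, DESeq2 called 13, the test with no filter on low counts 21, the fit over both tissues 1, a test against a fold of 1.5 gave 2, and the fit without Akap5, Lrrc17 and Bc1 gave 3. Leaving out 1 exposed library gave 4 to 80 calls. In hippocampus, where 3 were called, DESeq2 called 22, and leaving out 1 library gave 0 to 10 with edgeR (852 and 1049 genes at an unadjusted p under 0.05 where it gave 0). The difference between tissues, with 16 calls, gave 41 with DESeq2, 3 with limma-voom and 17 with exposure time as a replicate block. A mean of at least 50 counts left 17 genes 1.5-fold below and 2 genes 2-fold below, and without genes of neighbouring regions and blood 3 were 2-fold below. Leaving out 1 exposed library gave 31 to 72 genes 1.5-fold above, 46 to 61 below, 2 to 15 genes 2-fold above and 10 to 15 below. The rule is looser with fewer exposed libraries, so a rise in these counts does not by itself show an effect of the library left out. Values near 0 changed sign as 1 exposed library was left out, over -0.12 to 0.04 for Bdnf, -0.02 to 0.26 for C4b, -0.05 to 0.02 for Mapt, -0.07 to 0.05 for Mt1, -0.11 to 0.07 for Mt2 and -0.12 to 0.18 for Ocln, and Cd4 was at -0.07 with limma-voom; the cause was not tested. Counts of 1 to 12 per library, as for Il1b, limit what can be seen, and a single control sets every direction.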

Other observations

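In the 4 cortical libraries of 3, 5 and 7 days and 3 weeks of UPM, whose headers have another form, Bc1 had 114, 138, 108 and 100 CPM of total counts, above every library of the comparison described here (9.15 to 23.4 CPM).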
